A study of Gorilla gorilla gorilla with 13 samples.

Results

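ARHGAP11A, SRGAP2, NOTCH2, TMEM14B, HYDIN, GTF2I, CHRNA7 and FRMPD2 were followed through 4 sorted cell populations of gorilla brain organoids. They were taken by symbol, as 8 of the 18137 genes in a table of read counts on the human genome build hg38. Most are ancestral genes whose segmental duplication produced copies found in humans or in a few primates. ARHGAP11A gave rise to ARHGAP11B, SRGAP2 to SRGAP2B and SRGAP2C, NOTCH2 to the NOTCH2NL genes, HYDIN to HYDIN2, CHRNA7 to the fusion gene CHRFAM7A, and FRMPD2 to FRMPD2B. GTF2I, a gene of the Williams-Beuren region, has several pseudogene copies. TMEM14B differs from the others: it is itself described as a primate-specific gene, so the label of an ancestor describes it less well. Some of the human copies act on cortical progenitors or synapses: ARHGAP11B and NOTCH2NL enlarge progenitor pools in experimental models, and SRGAP2C slows the maturation of dendritic spines by inhibiting SRGAP2. ARHGAP11B is known from humans only.

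The organoids are cultures that form cortical tissue from pluripotent stem cells, and all came from the gorilla induced pluripotent stem cell line GC1 at week 8 of culture, within 3 days. Sorting gave BCL11B-positive neurons (N, 2 libraries), basal intermediate progenitors (bIP, 3), basal radial glia (bRG, 4) and apical radial glia (aRG, 4). The labels give no genetic change and no drug treatment that sets a population apart. Each of the 13 libraries was made by Smart-seq2 from the RNA of 10000 cells and counted without molecular identifiers. The line is a single genetic background, and no label ties libraries to separate cultures, so the p-values speak only of differences among these libraries, which may be technical. A second deposited table holds counts on the gorilla build gorGor6.

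Total counts per library ran from 5464721 to 12524938 in the hg38 table and from 11835004 to 26173260 in the gorGor6 table. Radial glia markers summed to 124 to 163 CPM in N, 138 to 168 CPM in bIP, 2436 to 4359 CPM in bRG and 3126 to 4204 CPM in aRG. Here CPM is the hg38 count relative to the size of its library, which TMM scaling had adjusted. Neuron markers summed to 4759 to 5008 CPM in N, 2866 to 3355 CPM in bIP, 490 to 853 CPM in bRG and 429 to 810 CPM in aRG. The bIP and bRG libraries went against their labels in part. EOMES, the defining transcription factor of intermediate progenitors, averaged 6.26 ± 0.677 CPM in N, 85.3 ± 49.1 CPM in bIP, 367 ± 92.9 CPM in bRG and 143 ± 84.4 CPM in aRG. The 6 basal radial glia markers (HOPX, PTPRZ1, TNC, FAM107A, MOXD1 and LIFR) did not set bRG above aRG. Their mean log2 CPM was 5.93 to 6.77 in bRG and 6.81 to 7.37 in aRG, and none passed between them, with log2 fold changes of -1.19 for HOPX (edgeR adjusted p = 0.196) and -0.71 for MOXD1 (0.458). Cajal-Retzius neuron markers, led by RELN, summed to 1329 to 3523 CPM in bIP, against 49.4 to 238 CPM in every other library. Choroid plexus markers summed to 1619 to 7824 CPM in aRG, against 103 to 1263 CPM elsewhere, and bRG library 3 had the fewest genes with a count, 16534. The part of these other cells in the results was not tested, and in bulk RNA fewer cells of a type and less RNA per cell cannot be told apart.

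The 8 genes showed different patterns over the 4 sorted populations. Any difference among the 4 populations was called for 5 of them, where 22.5% of the 16804 genes tested were called (edgeR quasi-likelihood test, Benjamini-Hochberg adjusted p under 0.05). They were ARHGAP11A (adjusted p = 4.28e-08), NOTCH2 (3.72e-06), SRGAP2 (0.00129), FRMPD2 (0.0174) and CHRNA7 (0.0340). HYDIN (0.458), TMEM14B (0.883) and GTF2I (0.976) did not pass. When each library was left out in turn, the call of CHRNA7 held in only 5 of 13 fits (edgeR adjusted p 0.0193 to 0.187), that of FRMPD2 in 11 (0.00686 to 0.0633) and the other 3 in all 13. On gorGor6 the test called ARHGAP11A, NOTCH2 and SRGAP2, 3 of the 8, where 10.7% of genes were called. ARHGAP11A was highest in aRG, NOTCH2 in both radial glia, FRMPD2 in bRG, CHRNA7 in bIP and SRGAP2 in N. All 8 passed the filter on low counts in both tables.

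**Figure D1:**
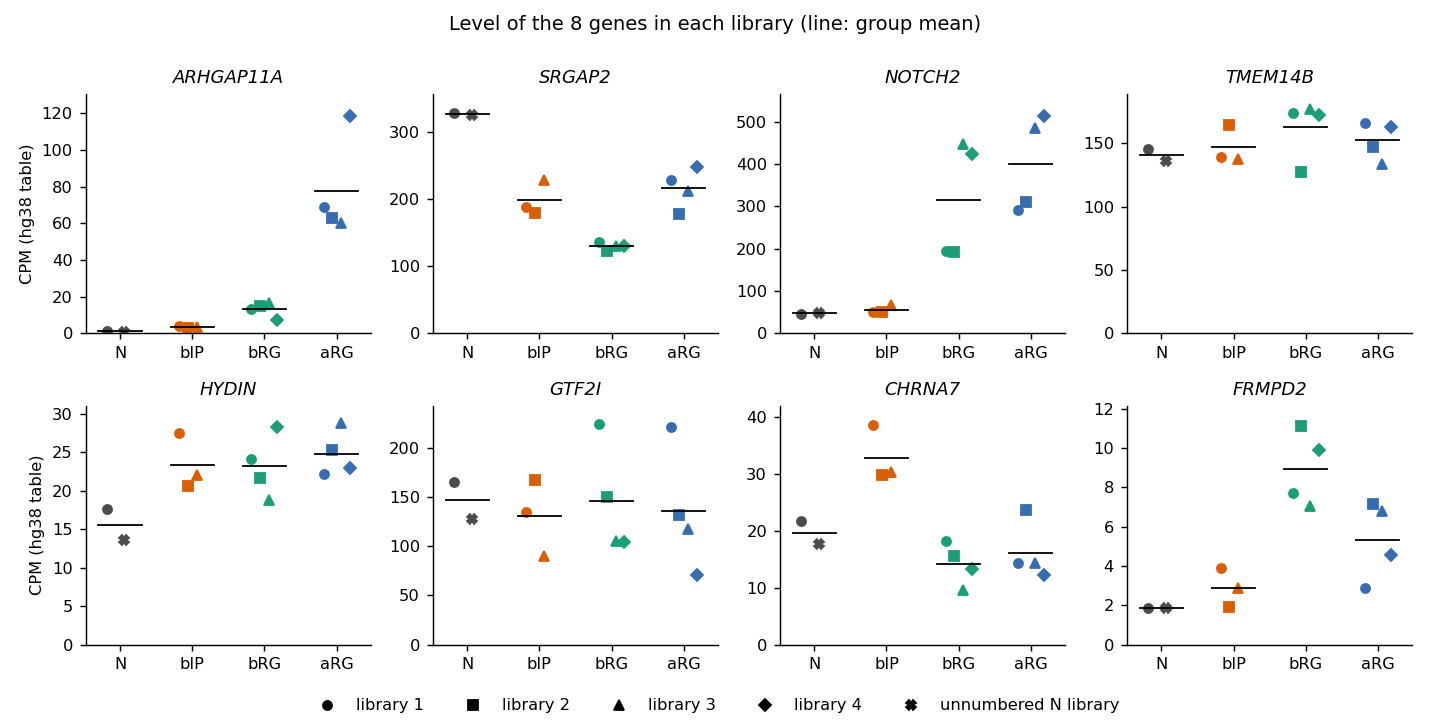
Level of each of the 8 genes (CPM, hg38 table, linear axes from 0) in every library, grouped as N, bIP, bRG and aRG, with a line at each group mean and a marker shape for each library number. ARHGAP11A stood at 60.0 to 118 CPM in aRG and at most at 16.6 CPM everywhere else, SRGAP2 was highest in both N libraries at 326 and 329 CPM, and TMEM14B spanned 127 to 177 CPM over all populations.

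ARHGAP11A encodes a protein that takes part in cell division. It was measured at 1.47 and 0.653 CPM in N, at 3.88, 2.76 and 3.42 CPM in bIP, at 13.3, 15.0, 16.6 and 7.42 CPM in bRG, and at 68.8, 62.9, 60.0 and 118 CPM in aRG. No 2 populations overlapped, and the order was aRG, then bRG, then bIP, then N. The means were 1.06 ± 0.578 CPM in N (SD, n = 2), 3.35 ± 0.565 CPM in bIP (n = 3), 13.1 ± 4.02 CPM in bRG (n = 4) and 77.5 ± 27.4 CPM in aRG (n = 4). Its log2 fold change was -2.57 ± 0.337 (SE) in bRG against aRG (edgeR adjusted p = 0.000349). It was -6.21 ± 0.571 in N against aRG (edgeR adjusted p = 6.40e-07) and -4.53 ± 0.423 in bIP against aRG (edgeR adjusted p = 6.13e-07). Against bRG it was -3.64 ± 0.518 in N (edgeR adjusted p = 6.88e-05) and -1.97 ± 0.385 in bIP (edgeR adjusted p = 0.00145). In N against bIP, the 1 comparison of ARHGAP11A that did not pass, it was -1.67 ± 0.518 (edgeR adjusted p = 0.402). In the N libraries the level rested on 12 and 7 counts.

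The fall of ARHGAP11A went with that of the genes of mitosis. Of 25 mitosis genes, 24 were lower in bRG against aRG, with a median log2 fold change of -2.37, against 0.038 over all genes tested. In N against aRG 24 were lower with a median of -5.16, against -0.053 over all genes, and in bIP against bRG 21 were lower with a median of -2.37, against -0.091. Of all genes tested, 1.23% were called lower in bRG against aRG, 9.37% in N against aRG and 8.44% in bIP against bRG. The mean log2 CPM of these 25 genes lay at 2.51 to 2.66 in N, 2.84 to 3.00 in bIP, 5.06 to 5.28 in bRG and 7.04 to 8.18 in aRG. aRG library 4 was the highest of all on this scale and for ARHGAP11A. The aRG libraries were also highest in the summed level of 7 mesenchyme markers (160 to 385 CPM, against 32.0 to 145 CPM elsewhere) and of the choroid plexus markers given above, whose part in the ARHGAP11A level was not tested. Of 9190 well-expressed genes, those with a pattern most like ARHGAP11A over the 13 libraries were BUB1B (Pearson r = 0.990 of log2 CPM), a spindle checkpoint kinase, KIF18A (0.982), a mitotic kinesin, and ORC6 (0.979), an origin recognition subunit. BUB1B averaged 1.48 ± 0.508 CPM in N, 3.75 ± 0.954 CPM in bIP, 28.0 ± 8.11 CPM in bRG and 186 ± 61.8 CPM in aRG. These correlations, and those given below for the other genes, are descriptions, since the libraries share 4 populations. They were also picked as the highest among 9190 genes over only 13 libraries, so high values can arise from the picking alone.

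**Figure D2:**
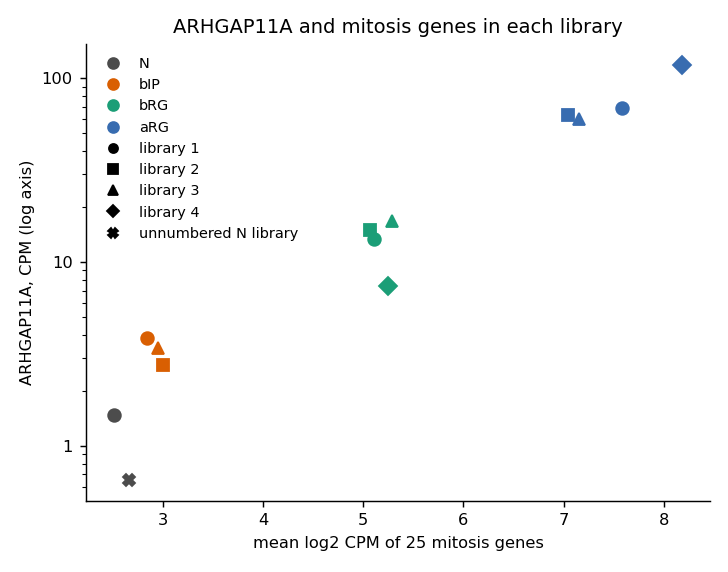
Level of ARHGAP11A (CPM, log axis) against the mean log2 CPM of 25 mitosis genes, 1 point per library, coloured by population and shaped by library number. The populations form 4 separate steps, from N at 2.51 to 2.66 on the mitosis axis to aRG at 7.04 to 8.18, with aRG library 4 at the upper right.

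SRGAP2 is an F-BAR protein with a Rac GTPase-activating domain that shapes membranes in migrating neurons and at synapses. It was measured at 329 and 326 CPM in N, at 189, 179 and 229 CPM in bIP, at 137, 122, 129.8 and 131 CPM in bRG, and at 228, 179, 212 and 248 CPM in aRG. Both N libraries were above all others and all bRG libraries below all others, while bIP and aRG overlapped. The means were 328 ± 2.46 CPM in N, 199 ± 26.2 CPM in bIP, 129.8 ± 5.86 CPM in bRG and 217 ± 29.3 CPM in aRG. The log2 fold change was 1.34 ± 0.219 in N against bRG (edgeR adjusted p = 0.000263) and 0.62 ± 0.199 in bIP against bRG (edgeR adjusted p = 0.0415). The call in bIP held in only 4 of the 13 fits that each left out a library (edgeR adjusted p 0.0329 to 0.179). With only bIP and bRG in the fit it was lost too (edgeR adjusted p = 0.0817).

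The lower SRGAP2 of bRG against aRG did not pass, at -0.74 ± 0.187 (edgeR adjusted p = 0.0668). DESeq2 called it (adjusted p = 0.00345), as did a fit with the replicate number as a block (edgeR adjusted p = 0.0467). In N against aRG SRGAP2 had a log2 fold change of 0.60 ± 0.223 (edgeR adjusted p = 0.0698, DESeq2 adjusted p = 0.0387), and in N against bIP 0.72 ± 0.237 (edgeR adjusted p = 0.470). bIP and aRG differed by -0.12, with a 95% interval of -0.55 to 0.30. The patterns most like that of SRGAP2 belonged to EIF4EBP1 (r = 0.940), a translation repressor, ITGB1BP1 (0.926), an integrin-binding protein, and CYB5R3 (0.910), a reductase.

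SRGAP1 and SRGAP3 are the older paralogs of SRGAP2. SRGAP1, which acts on Rac and Cdc42 downstream of Slit and Robo, averaged 946 ± 80.0 CPM in N, 705 ± 112 CPM in bIP, 249 ± 30.8 CPM in bRG and 232 ± 61.5 CPM in aRG. It was higher in N and in bIP than in either radial glia, with log2 fold changes of 2.03 in N against aRG, 1.93 in N against bRG, 1.60 in bIP against aRG and 1.50 in bIP against bRG (edgeR adjusted p 1.83e-05 to 0.000221). In bRG against aRG, where all 4 bRG libraries of SRGAP2 lay below all 4 aRG libraries, SRGAP1 had a log2 fold change of 0.10 (edgeR adjusted p = 0.927). SRGAP3 averaged 1299 ± 94.3 CPM in N, 844 ± 122 CPM in bIP, 1393 ± 255 CPM in bRG and 1253 ± 426 CPM in aRG, and passed in none of the 6 comparisons. The difference between the paralogs' courses was not tested.

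NOTCH2 is a receptor of the Notch pathway, in which ligand on one cell releases an intracellular fragment of the receptor that switches on genes such as HES1 and keeps radial glia undifferentiated. It was measured at 45.1 and 48.8 CPM in N, at 51.4, 49.4 and 66.9 CPM in bIP, at 195, 193, 447 and 424 CPM in bRG, and at 291, 309, 485 and 515 CPM in aRG. Every radial glia library was above every N and bIP library, and bRG and aRG overlapped. On hg38, libraries 3 and 4 of both radial glia stood above libraries 1 and 2, by a ratio of means of 2.24 in bRG and 1.67 in aRG. This did not hold in bRG on gorGor6. There bRG library 3 had 685 NOTCH2 counts, fewer than the 874 of bRG library 2, from a larger library total. Means were 46.9 ± 2.61 CPM in N, 55.9 ± 9.57 CPM in bIP, 315 ± 139.6 CPM in bRG and 400.0 ± 116 CPM in aRG.

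The log2 fold change of NOTCH2 was -3.09 ± 0.424 in N against aRG (edgeR adjusted p = 3.59e-05) and -2.75 ± 0.415 in N against bRG (edgeR adjusted p = 0.000120). It was -2.84 ± 0.352 in bIP against aRG (edgeR adjusted p = 1.26e-05) and -2.49 ± 0.346 in bIP against bRG (edgeR adjusted p = 5.94e-05). All 4 calls held without each library in turn and with libraries 1 and 2 against 3 and 4 as a term, where bIP against aRG was -2.66 and bIP against bRG was -2.26. bRG and aRG differed by -0.34, with a 95% interval of -0.96 to 0.27, and N and bIP by -0.25, with an interval of -1.06 to 0.56. The patterns most like that of NOTCH2 belonged to PON2 (r = 0.984), an antioxidant enzyme, HMGA2 (0.983), a chromatin protein of progenitors, and KIAA1217 (0.982).

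Several other genes of the Notch pathway were lower in N and bIP too. Of 25 listed, 9 were lower and 1 was higher in bIP against aRG, 7 and 1 in bIP against bRG, 8 and 1 in N against bRG, and 8 and 2 in N against aRG. Of all genes tested, 9.98% were lower and 8.47% higher in bIP against aRG, and 8.44% and 8.25% in bIP against bRG. In N the shares were 9.13% and 10.6% against bRG, and 9.37% and 10.4% against aRG. Their median log2 fold change was -0.64 in bIP against aRG, against -0.035 over all genes tested, and -0.81 in N against aRG, against -0.053. HES1, a target of the receptors, averaged 2.11 ± 1.53 CPM in N, 3.87 ± 2.86 CPM in bIP, 82.5 ± 30.2 CPM in bRG and 103 ± 22.0 CPM in aRG. The receptors NOTCH1 and NOTCH3 were lower in N than in aRG by log2 fold changes of -3.05 and -4.05, and the ligand JAG2 was the gene higher in all 4 comparisons. NOTCH4, a further receptor, passed in none of the 6. In bRG against aRG, edgeR and DESeq2 called none of the 25, and 1 had an unadjusted p under 0.05.

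CHRNA7 encodes the alpha subunit of a homopentameric nicotinic acetylcholine receptor that passes calcium. It was measured at 21.7 and 17.6 CPM in N, at 38.5, 29.7 and 30.3 CPM in bIP, at 18.1, 15.5, 9.55 and 13.3 CPM in bRG, and at 14.3, 23.6, 14.3 and 12.2 CPM in aRG. All 3 bIP libraries were above the other 10, whose ranges overlapped between N, bRG and aRG. Means were 19.7 ± 2.87 CPM in N, 32.8 ± 4.93 CPM in bIP, 14.1 ± 3.62 CPM in bRG and 16.1 ± 5.09 CPM in aRG. The log2 fold change was 1.22 ± 0.326 in bIP against bRG (edgeR adjusted p = 0.0141) and 1.03 ± 0.325 in bIP against aRG (edgeR adjusted p = 0.0333). The call against aRG held in only 7 of the 13 fits that left out a library. It was lost without bIP library 1 (adjusted p = 0.148), 2 (0.0670) or 3 (0.0658), or aRG library 1 (0.0739), 3 (0.0826) or 4 (0.0946). The call against bRG was lost without bIP library 1 (adjusted p = 0.0773).

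N against bIP did not pass for CHRNA7, at -0.74 with a 95% interval of -1.58 to 0.099 (edgeR adjusted p = 0.809). The bIP libraries were also those with the highest Cajal-Retzius markers, 1329 to 3523 CPM in sum against 49.4 to 238 CPM elsewhere, with RELN at 2048 ± 1001 CPM in bIP. The part of those cells in the CHRNA7 level was not tested. The patterns most like that of CHRNA7 belonged to MICALL2 (r = 0.925), TRPM4 (0.896), a cation channel, and ATAD3A (0.895), a mitochondrial ATPase.

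The other nicotinic subunits did not follow a common course. CHRNA4 and CHRNB2, which form the main high-affinity nicotinic receptor of the brain, were higher in N and bIP than in radial glia. CHRNA4 averaged 66.4 ± 14.6 CPM in N, 46.9 ± 2.72 CPM in bIP, 6.41 ± 3.84 CPM in bRG and 8.76 ± 5.16 CPM in aRG, with log2 fold changes of 2.94 in N against aRG (edgeR adjusted p = 0.000398) and 2.44 in bIP against aRG (0.00114). CHRNA3, CHRNA5 and CHRNB4, a gene cluster whose products assemble together, were lower in bIP than in bRG, by -3.05, -2.49 and -2.19 (edgeR adjusted p 0.000216 to 0.00335). CHRNA3 averaged 22.1 ± 4.92 CPM in N, 41.4 ± 19.6 CPM in bIP, 344 ± 209.7 CPM in bRG and 141 ± 119 CPM in aRG. Among the nicotinic subunits, CHRNA10 was lower in bIP than in aRG (-2.04, edgeR adjusted p = 0.00640) and CHRNB3 in N (0.169 ± 0.107 CPM) than in aRG (3.39 ± 3.87 CPM, edgeR adjusted p = 0.0477). The level of CHRNB3 in the N libraries rested on 2 and 1 counts. CHRNA1, CHRNA2, CHRNA6, CHRNA9 and CHRNB1 passed in none of the 6 comparisons. Over all families, 23 older paralogs were tested: 3 were higher and 5 lower in bIP against aRG, in bIP against bRG and in N against bRG, and 3 and 4 in N against aRG. Of all genes tested, 18.4% were called in bIP against aRG, 16.7% in bIP against bRG, 19.8% in N against bRG and 19.8% in N against aRG. The median log2 fold change of the paralogs was -0.63 in bIP against aRG, against -0.035 over all genes, -0.56 in bIP against bRG, against -0.091, -0.48 in N against bRG, against -0.085, and -0.63 in N against aRG, against -0.053. In bRG against aRG edgeR called none, with 4 at an unadjusted p under 0.05, and DESeq2 called 1.

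**Figure D3:**
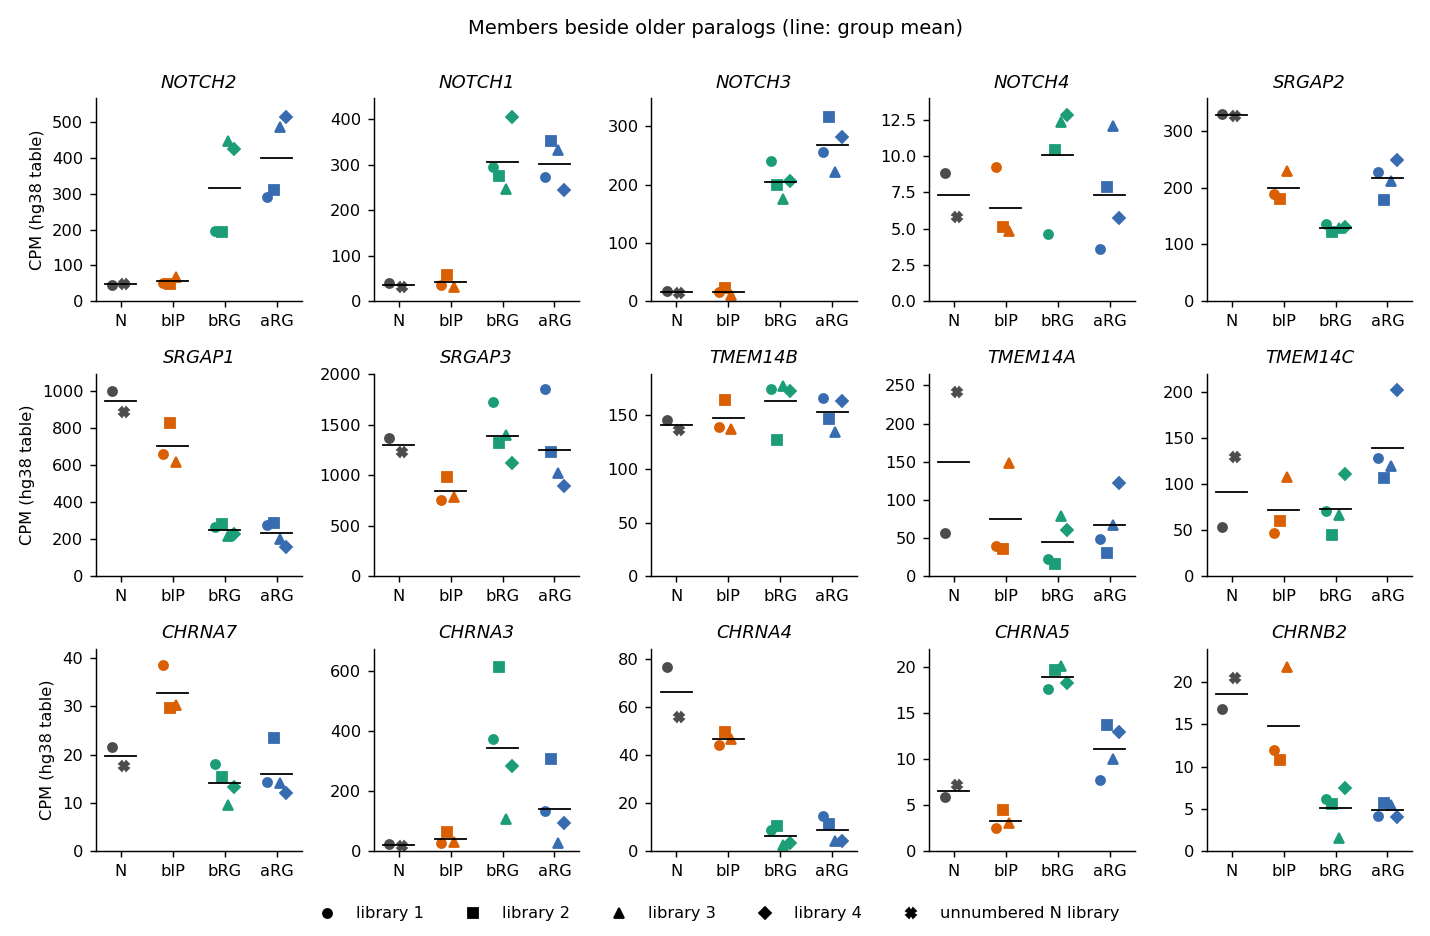
Level (CPM, hg38 table, linear axes from 0) of NOTCH2, SRGAP2, TMEM14B and CHRNA7, each followed by older paralogs, in every library of N, bIP, bRG and aRG, with a line at the group mean. NOTCH1 and NOTCH3 share the step of NOTCH2 between radial glia and the other populations, while NOTCH4 passed in no comparison. The paralogs of SRGAP2 and CHRNA7 also differ among themselves, with SRGAP1 near 946 CPM in N and 232 CPM in aRG and CHRNA3 near 344 CPM in bRG.

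FRMPD2 encodes a scaffold protein with FERM and PDZ domains, found at cell junctions of epithelia and at synapses. It was the least abundant of the 8 in counts, with 601 over the 13 libraries. It was measured at 1.84 and 1.87 CPM in N, at 3.88, 1.91 and 2.88 CPM in bIP, at 7.69, 11.1, 7.07 and 9.90 CPM in bRG, and at 2.89, 7.14, 6.80 and 4.54 CPM in aRG. All 4 bRG libraries were above all N and bIP libraries, while bRG overlapped aRG by 1 library and aRG overlapped bIP. The log2 fold change was -2.26 ± 0.606 in N against bRG (edgeR adjusted p = 0.0126) and -1.63 ± 0.498 in bIP against bRG (edgeR adjusted p = 0.0305). The call in N was lost without either N library (adjusted p = 0.100 and 0.114), with the replicate number as a block (0.223) and with libraries 1 and 2 against 3 and 4 as a term (0.121). That in bIP held in 8 of the 13 fits that left out a library (adjusted p 0.0142 to 0.145). It was also lost with the replicate number as a block (adjusted p = 0.0793) and with only bIP and bRG in the fit (0.0664).

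For FRMPD2, bRG against aRG had a log2 fold change of 0.74, with a 95% interval of -0.18 to 1.66, and N against aRG one of -1.53 (edgeR adjusted p = 0.0789, DESeq2 adjusted p = 0.0153). Its paralog FRMPD1 passed in none of the 6 comparisons, with 2.82 ± 0.691 CPM in N, 5.47 ± 1.16 CPM in bIP, 6.04 ± 4.82 CPM in bRG and 3.39 ± 2.24 CPM in aRG. The patterns most like that of FRMPD2 belonged to KLHDC8A (r = 0.913), LRP2 (0.872), an endocytic receptor of neuroepithelium and choroid plexus, and SPSB4 (0.867).

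HYDIN, a protein of the central apparatus of motile cilia, was measured at 17.6 and 13.5 CPM in N, at 27.5, 20.6 and 22.0 CPM in bIP, at 24.1, 21.6, 18.7 and 28.3 CPM in bRG, and at 22.2, 25.3, 28.8 and 22.9 CPM in aRG. Both N libraries were below the other 11, but no comparison passed: in N against aRG the log2 fold change was -0.67 ± 0.331 (edgeR adjusted p = 0.181). Between bRG and aRG it was -0.098, with a 95% interval of -0.65 to 0.45. Of 27 motile cilium genes tested, 1 was higher and 3 were lower in N against aRG, and 2 and 5 in bIP against aRG, where 19.8% and 18.4% of all genes tested were called. The list's median log2 fold change was -0.65 in N against aRG, against -0.053 over all genes, and -0.11 in bIP against aRG, against -0.035. DNAH11, an outer dynein arm heavy chain, averaged 6.44 ± 1.46 CPM in N, 9.40 ± 2.46 CPM in bIP, 35.2 ± 6.39 CPM in bRG and 34.8 ± 5.79 CPM in aRG. CFAP221, another protein of the central apparatus, went the other way, at 65.8 ± 4.53 CPM in N, 52.5 ± 6.57 CPM in bIP, 32.1 ± 6.41 CPM in bRG and 21.1 ± 6.11 CPM in aRG. HYDIN itself had its closest patterns, at lower r than those of the genes above, in XPNPEP3 (r = 0.814), GRIP2 (0.801) and NALCN (0.778).

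TMEM14B is a small membrane protein that promotes basal progenitors when expressed in mouse cortex. It varied least of the 8 over the libraries, at 145 and 136 CPM in N, 139, 164 and 137 CPM in bIP, 174, 127, 177 and 173 CPM in bRG, and 166, 147, 134 and 163 CPM in aRG. All populations overlapped. The log2 fold change was 0.095 in bRG against aRG, with a 95% interval of -0.31 to 0.49, and -0.11 in N against aRG, with an interval of -0.60 to 0.38. Without bRG library 2, the low one, bRG against aRG was 0.19 (edgeR adjusted p = 0.732). Its paralogs TMEM14A and TMEM14C varied more between libraries, TMEM14C with 91.2 ± 53.8 CPM in N, 71.5 ± 31.9 CPM in bIP, 73.3 ± 27.6 CPM in bRG and 139 ± 42.7 CPM in aRG, and both passed in no comparison. The patterns most like that of TMEM14B belonged to COX15 (r = 0.924), RNF145 (0.876) and POLR1B (0.844).

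GTF2I encodes TFII-I, a transcription factor that binds initiator elements and E-boxes. It was measured at 166 and 128 CPM in N, at 135, 167 and 90.3 CPM in bIP, at 224, 149.9, 106 and 105 CPM in bRG, and at 222, 132, 118 and 71.3 CPM in aRG. The population means lay between 131 and 147 CPM and all populations overlapped. Within both radial glia, libraries 3 and 4 were below libraries 1 and 2, with ratios of means of 0.562 in bRG and 0.535 in aRG. For NOTCH2 the same libraries were higher on hg38, as given above. Between bRG and aRG the log2 fold change of GTF2I was 0.11, with a 95% interval of -0.57 to 0.79, and between N and aRG it was 0.12, with an interval of -0.71 to 0.95. The related genes GTF2IRD1, GTF2IRD2 and GTF2IRD2B passed in no comparison. The patterns most like that of GTF2I belonged to SFSWAP (r = 0.951), a splicing regulator, ABCC1 (0.931), an efflux pump, and CSNK1G2 (0.909), a kinase.

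By comparison, 1 of the 8 genes was called in bRG against aRG, ARHGAP11A, against 1.26% of all genes, 0.0298% higher and 1.23% lower. In bIP against aRG 3 were called, 2 lower (ARHGAP11A and NOTCH2) and 1 higher (CHRNA7), against 18.4% of all genes, 8.47% higher and 9.98% lower. bIP against bRG gave 5, lower ARHGAP11A, NOTCH2 and FRMPD2 and higher CHRNA7 and SRGAP2, against 16.7%, 8.25% higher and 8.44% lower. In N against bRG 4 were called, against 19.8% of all genes, 10.6% higher and 9.13% lower. ARHGAP11A, NOTCH2 and FRMPD2 were lower and SRGAP2 was higher. In N against aRG 2 were called, ARHGAP11A and NOTCH2, both lower, against 19.8%, 10.4% higher and 9.37% lower. With 8 genes, each count stands on few cases, and the comparisons share libraries. None of the 8 was called in N against bIP by edgeR or DESeq2, where 0.113% of all genes were called, all of them lower, and 2 of the 8, ARHGAP11A and SRGAP2, had an unadjusted edgeR p under 0.05. The count in bIP against bRG was 2 to 5 without each library in turn, and 3 in a fit of those populations alone. Without bRG library 3, 4 of the genes were called in N against aRG instead of 2, with SRGAP2 (edgeR adjusted p = 0.0335) and FRMPD2 (0.0411) added.

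With 38520 genes tested on gorGor6, 1 of the 8 was called in bRG against aRG (0.496% of all genes), 2 in bIP against aRG (8.05%), 3 in bIP against bRG (7.44%), 3 in N against bRG (9.31%), 2 in N against aRG (8.97%) and none in N against bIP (0.0441%), where DESeq2 was not run and 2 had an unadjusted p under 0.05. ARHGAP11A was called in the same 5 comparisons as on hg38 and NOTCH2 in the same 4, all of them lower. For SRGAP2 the call in N against bRG was kept (log2 fold change 1.34, edgeR adjusted p = 0.000931). That of SRGAP2 in bIP against bRG was not (0.67, edgeR adjusted p = 0.0800). This difference was no smaller than on hg38 (0.62), and its unadjusted edgeR p was 0.00714 on gorGor6 and 0.00651 on hg38. The adjustment ran over 38520 genes on gorGor6 and 16804 on hg38, so a lost call need not mean a smaller difference. For CHRNA7 the call in bIP against bRG was kept (1.29, edgeR adjusted p = 0.0263) and that in bIP against aRG was not (0.69, edgeR adjusted p = 0.349). FRMPD2 was called in none, with -1.88 in N against bRG (edgeR adjusted p = 0.234).

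**Figure D4:**
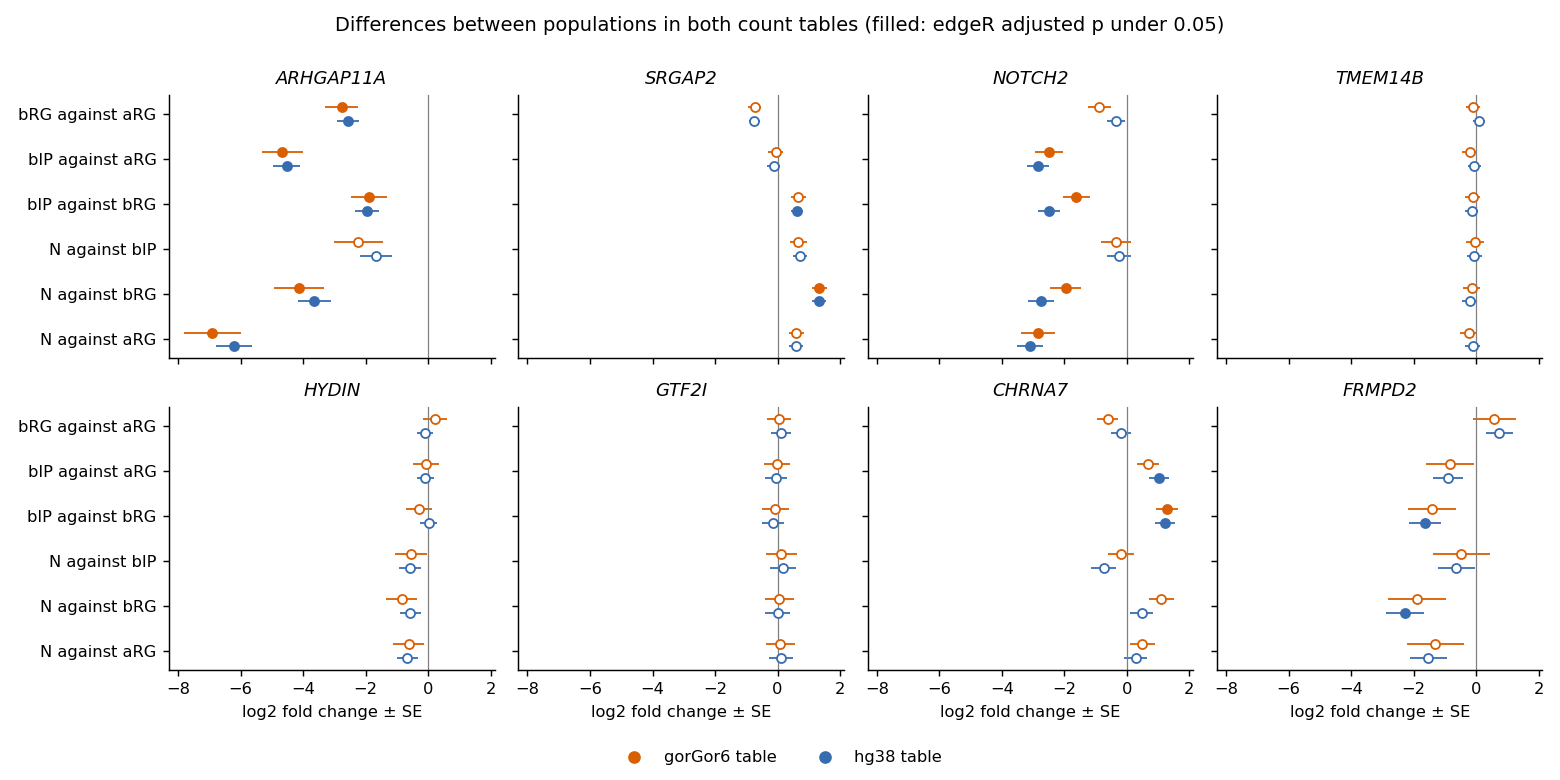
Log2 fold change ± SE of each of the 8 genes in the 6 comparisons, from the gorGor6 table (orange, upper of each pair) and the hg38 table (blue, lower), filled where the edgeR adjusted p was under 0.05. ARHGAP11A and NOTCH2 are filled in both tables in the same comparisons, while SRGAP2, CHRNA7 and FRMPD2 lose filled points in the gorGor6 table. The adjustment ran over 38520 genes in the gorGor6 table and 16804 in the hg38 table.

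The genes differed in how many reads each build assigned to them. Over the 11020 genes with at least 1000 counts on hg38, the gorGor6 count was a median of 175% of the hg38 count, with 154% and 189% at the quartiles and 44.3% and 213% at the 5th and 95th percentiles. ARHGAP11A (5679 counts on gorGor6 and 3137 on hg38, 181%) and SRGAP2 (191%) lay above that median, with 60.6% and 77.2% of genes below them. TMEM14B (211%) lay close to the 95th percentile, with 94.4% of genes below it. HYDIN (87.2%), GTF2I (77.9%) and FRMPD2 (69.9%) lay low, with 6.03% to 6.64% of genes below them. NOTCH2 was lower still, with 12872 counts on gorGor6 and 27414 on hg38, or 47.0%, and 5.12% of genes were below it. CHRNA7 was at the other end, with 7380 counts on gorGor6 and 2218 on hg38, or 333%, above 99.7% of genes.

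For NOTCH2 and CHRNA7 the percent also moved between libraries. The percent of NOTCH2 was 61.4 and 57.0 in N, 72.4, 49.6 and 64.7 in bIP, 48.0, 50.3, 18.1 and 44.5 in bRG, and 28.2, 41.8, 63.5 and 54.4 in aRG, so bRG library 3 and aRG library 1 were lowest. Pooled over libraries it was 58.8% in N, 61.8% in bIP, 36.8% in bRG and 52.7% in aRG. The highest of these population values over the lowest was 1.68, against a median of 1.05 over 10721 such genes, 98.0% of which were below NOTCH2. The log2 fold change of NOTCH2 in bRG against aRG was -0.88 on gorGor6 (edgeR adjusted p = 0.692), against -0.34 on hg38. CHRNA7 had 429% in N, 286% in bIP, 307% in bRG and 368% in aRG, a ratio of 1.50 that was above 97.2% of genes. By library the percent of CHRNA7 was 375 and 479.9 in N, 276, 297 and 285 in bIP, 229, 359.7, 178 and 387 in bRG, and 484, 330.3, 430.2 and 263 in aRG. Libraries 1 and 3 of bRG and library 4 of aRG lay below every bIP library. N against bRG for CHRNA7 was 1.11 on gorGor6 (edgeR adjusted p = 0.0865), against 0.48 on hg38. HYDIN had a ratio of 1.34, above 95.5% of genes, and its percent ran from 60.3 in bIP library 2 to 139.6 in bRG library 3. ARHGAP11A had a ratio of 1.75, resting on N, where its counts were 20 and 0 on gorGor6 and 12 and 7 on hg38. Which build places the reads of these genes more truly was not tested.

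**Figure D5:**
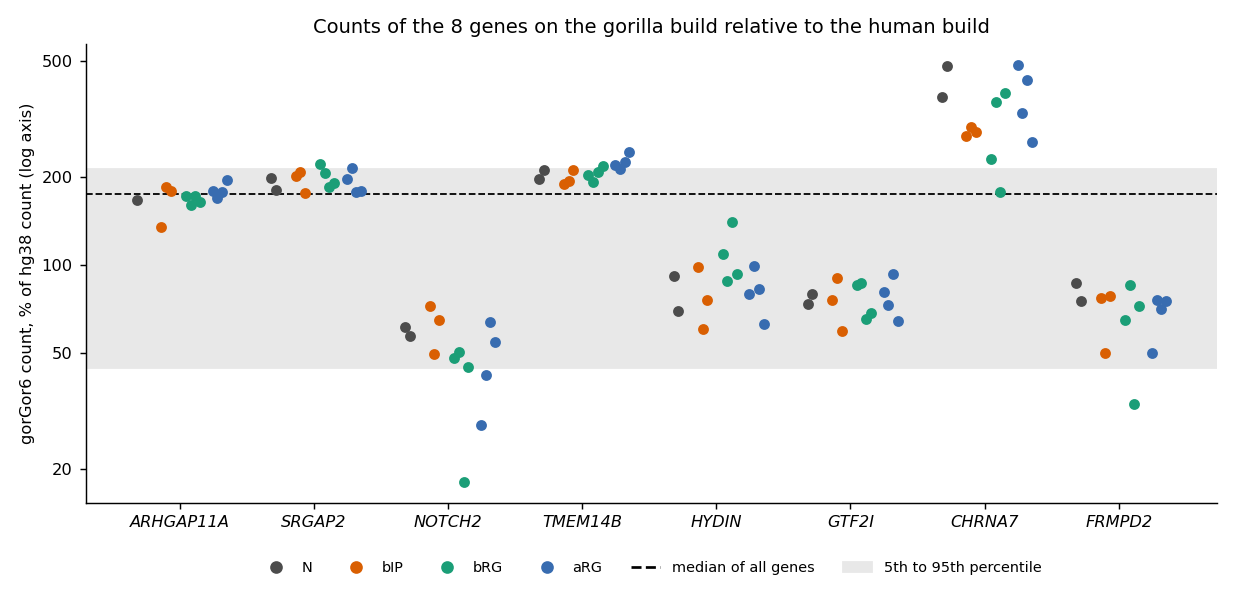
Count on gorGor6 as a percent of the count on hg38 (log axis) for each of the 8 genes, 1 point per library, ordered and coloured by population, with the median of 11020 genes (dashed, 175%) and their 5th to 95th percentile (grey, 44.3% to 213%). NOTCH2 falls below the grey band in 3 libraries and CHRNA7 lies above it in all but 1, and ARHGAP11A in the unnumbered N library, at 0%, cannot be drawn on this axis.

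The hg38 table has rows for 7 of the 22 listed copies. ARHGAP11B held 14 counts over the 13 libraries, or 0.444% of the counts of ARHGAP11A and its copy together. SRGAP2B and SRGAP2C held 227 and 86 counts, or 1.33% of the family, and NOTCH2NLA, NOTCH2NLB and NOTCH2NLC held 92, 0 and 151 counts, or 0.879%. CHRFAM7A held 218 counts, or 8.95% of those of CHRNA7 and itself, from 1.67% to 16.8% by library. On either build, a count on the row of a copy says only where a read was placed. Of these 7 rows, 5 passed the filter on low counts; edgeR and DESeq2 called none in any comparison, and none had an unadjusted edgeR p under 0.05. Adding the copies to the counts of ARHGAP11A, SRGAP2, NOTCH2 and CHRNA7 ended no call and made none on hg38. Shares as small as those above could move most of these counts little. TMEM14B, HYDIN, GTF2I and FRMPD2 have no copy row on hg38, so nothing was added to them.

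The gorGor6 table has rows for 17 of the copies. ARHGAP11B held 36 counts, with 0 and 1 in N, 6, 0 and 3 in bIP, 0, 0, 1 and 6 in bRG, and 0, 0, 9 and 10 in aRG. That was 0.630% of the pair over the 13 libraries, but the 1 count in the unnumbered N library, where ARHGAP11A had 0, was 100% of the pair there. TMEM14EP, a relative of TMEM14B, held 342 counts, or 0.943% of those of TMEM14B and itself. HYDIN2 held 8 counts, GTF2IP20 20, NOTCH2P1 5 and SRGAP2C 1. The rows of SRGAP2B, SRGAP2D, the 3 NOTCH2NL genes, TMEM14DP, GTF2IP1, GTF2IP4, GTF2IP7, CHRFAM7A and FRMPD2B were listed at 0 in all 13 libraries. CHRFAM7A thus had 0 counts on the build where CHRNA7 had 7380, and 218 on the build where CHRNA7 had 2218. GTF2IP13, a GTF2I pseudogene row outside the list and chosen after its values were seen, held 3160 counts on gorGor6 (58 to 437 per library), beside 11653 for GTF2I. Among the older paralogs, TMEM14C was listed at 0 in every library on gorGor6 and had 11107 counts on hg38, and GTF2IRD1 had 2044 counts on gorGor6 and 16326 on hg38.

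In the RefSeq annotation of the gorilla assembly NHGRI_mGorGor1-v2.1_pri, 7 of the 8 symbols were matched. Neighbours were taken among named protein-coding genes only, so unnamed genes and LOC symbols, which could include copies, were passed over. On that basis SRGAP2 lies between IKBKE and FAM72A, GTF2I between GTF2IRD1 and NCF1, and FRMPD2 between MAPK8 and PTPN20. FAM72A, NCF1 and PTPN20 are among the other ancestors of human duplicates listed here. CHRNA7 lies between TJP1 and OTUD7A, ARHGAP11A between FAN1 and SCG5, TMEM14B between PAK1IP1 and MAK, and HYDIN between VAC14 and CMTR2. FAM72A, a gene of uracil repair and cell division next to SRGAP2, was highest in aRG. It averaged 0.0613 ± 0.0867 CPM in N, 0.375 ± 0.314 CPM in bIP, 0.521 ± 0.523 CPM in bRG and 3.54 ± 2.27 CPM in aRG, and was lower in N than in aRG (edgeR adjusted p = 0.0149). Its level in N lay near the floor and rested on very few counts.

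Of 43 other ancestors of human duplicates listed, 34 were tested. In bIP against aRG 3 were higher (STAG3, NAIP and TCAF1) and 2 lower (CROCC and FAM72A). In N against aRG 1 was higher and 2 were lower, in N against bRG 1 and 1, and in bIP against bRG 2 were higher. Shares called over all genes tested were 18.4% in bIP against aRG, 19.8% in N against aRG, 19.8% in N against bRG and 16.7% in bIP against bRG. The counts of the list rest on few genes and were not tested against these shares. The median log2 fold change was 0.12 in bIP against aRG and 0.11 in N against aRG, against -0.035 and -0.053 over all genes tested. TCAF1, a regulator of TRPM8 channels, averaged 75.3 ± 9.86 CPM in N, 60.3 ± 11.5 CPM in bIP, 33.1 ± 7.21 CPM in bRG and 34.1 ± 5.14 CPM in aRG. It was called higher in all 4 comparisons of N or bIP with radial glia. CROCC, the ciliary rootlet protein, ran the other way, at 66.5 ± 6.90 CPM in N, 84.0 ± 24.9 CPM in bIP, 126 ± 8.79 CPM in bRG and 144 ± 28.0 CPM in aRG. None of the 34 was called in bRG against aRG by edgeR, where 2 had an unadjusted p under 0.05, and DESeq2 called 1 of 43.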

How the data were processed

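The authors deposited raw read counts per gene symbol for 13 libraries, in a table on hg38 (18137 genes, the main one) and a table on gorGor6 (60583 named genes, with the build taken from that table's title). STAR and hg38 appear, without role or version, per the submitters' processing notes. The sources used here give no annotation, counter or strand setting, which leaves overlapping genes and genes with near-identical copies uncertain. A nameless gorGor6 row (0.0035% to 0.0077% of counts) was dropped. A neuron column whose number no label has was used as an unnumbered N library. Positions are not reported here, and no sequence was used.

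Counts were tested with the quasi-likelihood F-test of edgeR 4.0.16 in R 4.3.3 after TMM scaling and filterByExpr, with all libraries in 1 fit and a mean per population, and adjusted by Benjamini-Hochberg over all 16804 genes tested. Standard errors are the fold change over the root of F. CPM are TMM-scaled, with mean ± SD. CPM levels are not per length and are not compared between genes. A chi-square per degree of freedom of 11.1 to 98.0 separated every pair of libraries within a population, more than sampling noise, and all were kept. Smart-seq2 reads without molecular identifiers are not independent molecules, so errors cover these libraries only.

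The 8 genes and all gene lists were chosen with earlier results of these data known. Named genes are the 8, the 3 genes per member with the highest correlation among those of mean log2 CPM of at least 4 (prior count 2), every copy or paralog with a row, and from other lists those with the smallest p. Alternatives were DESeq2 1.42.0, its size factors, no filter, the gorGor6 table, copies added to their ancestors, the replicate number as a block, libraries 1 and 2 against 3 and 4 as a term, only the populations compared, and each library left out. The tests were first run on simulated data.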

Additional observations from a re-analysis of the deposited data

Results flagged for a closer look

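A gap test for a sample far from the others was applied to 32 groups of 4 libraries and picked out 2, both by hg38 CPM. The groups covered each gene in bRG and in aRG, by hg38 CPM and by gorGor6 count as a percent of hg38 count. Levels on gorGor6 by themselves were not examined. Chance picks about 1 in 20 such groups. ARHGAP11A stood at 118 CPM in aRG library 4, against 60.0 to 68.8 CPM in the other aRG libraries. Its gap was 0.849 of the range, against a critical value of 0.829. Without aRG library 4, ARHGAP11A was still called in bRG against aRG (log2 fold change -2.26, edgeR adjusted p = 0.00260). That library was also the highest for the 25 mitosis genes, at a mean log2 CPM of 8.18, and its part in the result was not tested further. TMEM14B stood at 127 CPM in bRG library 2, against 173 to 177 CPM in the other bRG libraries, with a gap of 0.910 of the range. TMEM14B passed in no comparison with or without that library.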

How the results depend on the processing

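Leaving out each library in turn gave 1 gene called in bRG against aRG, 2 to 3 in bIP against aRG, 2 to 5 in bIP against bRG, 0 in N against bIP, 3 to 4 in N against bRG, 2 to 4 in N against aRG and 3 to 5 among the 4 populations. In bRG against aRG 2 genes were called by DESeq2, with the replicate block and with libraries 1 and 2 against 3 and 4 as a term, SRGAP2 being the addition. In bIP against bRG 3 were called on gorGor6, on gorGor6 with copies added and in a fit of only those populations. N against aRG gave 4 with DESeq2, SRGAP2 and FRMPD2 being added. Among the 4 populations 3 were called on gorGor6, with or without copies added, and with the replicate block. The causes were not tested. ARHGAP11A kept its 5 calls and NOTCH2 its 4 without each library, as did SRGAP2 in N against bRG.

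As a ratio of CPM in place of counts, the gorGor6 level as a percent of the hg38 level was 86.5 for ARHGAP11A, 92.2 for SRGAP2, 21.6 for NOTCH2, 99.7 for TMEM14B, 42.0 for HYDIN, 36.9 for GTF2I, 157 for CHRNA7 and 32.2 for FRMPD2. These are lower because the library totals are larger on gorGor6.

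Every value that changed sign belonged to a difference that was not called. On gorGor6, with and without copies added, bRG against aRG was -0.11 and -0.097 for TMEM14B and 0.22 and 0.22 for HYDIN, and bIP against bRG was -0.29 and -0.29 for HYDIN. For GTF2I, N against bRG was -0.049 with DESeq2, -0.050 with its size factors, -0.35 with the replicate block, -0.17 with libraries 1 and 2 against 3 and 4 as a term and -0.037 with only those populations. N against aRG was -0.21 with the block and -0.052 with the term, and N against bIP -0.034 with the block, for GTF2I. Leaving out libraries moved GTF2I from -0.18 to 0.45 in bRG against aRG, -0.27 to 0.29 in bIP against aRG, -0.38 to 0.12 in bIP against bRG, -0.041 to 0.39 in N against bIP, -0.18 to 0.29 in N against bRG and -0.14 to 0.46 in N against aRG. It moved CHRNA7 from -0.33 to 0.055 in bRG against aRG, TMEM14B from -0.14 to 0.0050 in bIP against aRG and from -0.13 to 0.026 in N against bIP, and HYDIN from -0.12 to 0.12 in bIP against bRG.

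The main fit did not take the replicate numbers to pair the libraries. Deviations of same-numbered libraries correlated at 0.112, 0.387, -0.0127 and 0.136 in bRG and aRG, and 2 of 4 aRG libraries correlated best with their own number. These values do not settle whether same-numbered libraries belong together, so the replicate number was also used as a block. The unnumbered N library was left out of the block and the term. On gorGor6 the median of all genes moved to -0.37 in N against bRG, -0.29 in N against aRG and -0.12 in N against bIP, against -0.085, -0.053 and 0.073 on hg38, so changes in N there are to be read relative to those. Low counts limit ARHGAP11A, CHRNB3 and FAM72A in N and FRMPD2 throughout.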
